A study of Mus musculus with 6 samples.

Results

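Receptor tyrosine kinases were followed in freshly isolated stem cells of skeletal muscle (MuSCs) with and without inactivation of Taf4a. The set was a list of 45 mouse genes of this receptor family, matched by symbol to the table of 22081 genes, of which 44 had a row. Alk had none. A mean of at least 5 normalized counts over the 6 libraries was reached by 43 members, which were tested, and Ltk, with a mean of 3.67, was not. Kit lay just inside this limit with a mean of 5.83.

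Receptor tyrosine kinases are single-pass membrane proteins that bring a growth factor signal into the cell. Ligand binding pairs or rearranges the receptor chains, the kinase domains phosphorylate each other, and the phosphotyrosines recruit adaptors that pass the signal to the RAS-ERK, PI3K-AKT and phospholipase C pathways. In MuSCs, FGF receptors and Met are known for their part in leaving quiescence and in proliferation, the insulin-like growth factor receptor for growth, and Musk for the neuromuscular junction of the muscle fiber.

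RNA-seq of total RNA was available for 3 control and 3 Taf4asKO libraries of C57BL/6 background, labelled WT and Taf4a-KO in the sample titles. Taf4asKO mice carried floxed Taf4a alleles and a tamoxifen-inducible Cre under the Pax7 promoter, which is active in MuSCs, and received tamoxifen. Controls of the study as a whole were littermates with the same floxed alleles, with or without the Cre allele, and both groups could carry a Pax7 zsgreen reporter. For the libraries labelled WT, the sources used here give neither the exact genotype nor whether the animals received tamoxifen. Adult animals of both sexes were used, and cells of limb and trunk muscle were sorted as negative for SCA1, CD45 and CD31 and positive for integrin alpha 7 or the reporter. The study reports that sorted cells were not fully pure on reanalysis. The study describes its replicates as biological in general, and the sources used here do not say whether a library came from 1 animal or a pool.

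Total normalized counts lay between 12338676 and 14551732 per library. Taf4, the current symbol of Taf4a, encodes a subunit of the general transcription factor TFIID. It had 613, 534 and 478 normalized counts in control libraries and 631, 565 and 574 in Taf4asKO replicates 1 to 3, a difference of 0.13 on the log2 scale (SE 0.12, limma adjusted p 0.524). The gene total includes exons outside the deleted ones and did not separate the labels, so directions are given for the libraries labelled Taf4asKO. All 12 listed MuSC markers were present, with summed counts of 49075 to 52490 in control and 53785 to 57931 in Taf4asKO. Of these markers 3 fell and 4 rose (limma), where 6.71% of all genes fell and 5.93% rose, and the 4 include Sdc4, with 5564 to 5814 in control and 9266 to 12662 in Taf4asKO. The higher sum does not mean that most of these markers rose. Log2 fold changes were below zero for 7 and above zero for 5, with a median of -0.12. Pax7, which defines these cells, had 12082, 12244 and 13007 normalized counts in control libraries and 10669, 10363 and 11164 in Taf4asKO. Markers of Schwann and glial cells were also present, with sums of 3548 to 6639 in control and 8274 to 9832 in Taf4asKO. Endothelial sums were 326 to 738 and 622 to 1154, and those of pericytes and smooth muscle were 27474 to 32690 and 28385 to 33750. Control replicate 1 had the lowest control sum of all 3 of these lists. Myofibre markers, all 10 with a row, summed to 2296, 6327 and 2905 in control and 3268, 3487 and 2852 in Taf4asKO, so control replicate 2 stood apart. Of 15 leukocyte markers 11 had no row, Ptprc (CD45) among them, and the 4 with a row summed to 445 to 552 in control and 684 to 928 in Taf4asKO.

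The comparison asked how transcripts of these receptors differ between control and Taf4asKO MuSCs. Of 43 receptors, 12 passed the threshold (a limma adjusted p under 0.05 with at least a 1.3-fold difference), which is 27.9%, where 12.6% of all 18562 genes tested passed. Ret, Ephb1, Epha4, Fgfr4, Ptk7, Met, Ephb6 and Ephb4 fell, and Epha3, Erbb3, Ntrk2 and Epha2 rose. The 8 receptors that fell are 18.6% of those tested, against 6.71% of all genes, and the 4 that rose are 9.30%, against 5.93%. The median log2 fold change was 0.083 over the 43 receptors and 0.004 over all genes, with 19 receptors below and 24 above zero. The median of the receptors was -0.026, 0.20 and 0.23 without control replicate 1, 2 or 3, so its sign depended on control replicate 1. In bulk RNA, fewer cells of a type and less RNA per cell cannot be told apart.

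When the replicate number entered as a block, the receptors that fell were again 8 and those that rose were 10. Block fits called 8.98% of all genes lower and 9.09% higher. The receptors added were Flt1, Pdgfra, Pdgfrb, Kdr, Ephb3 and Epha7. Control and Taf4asKO values did not overlap for 22 of the 43 receptors, with 13 below and 9 above control, against 33.0% of all genes. Without the intensity trend in the limma fit, 6 of the falls and 1 of the rises passed, where 941 of all 18562 genes passed. Leaving out each library in turn, 6 of the 12 calls held in all 6 fits, namely Ret, Ephb1, Epha4, Fgfr4, Ptk7 and Met, all of them lower. All 8 falls were among the 33 receptors with a mean of at least 50 normalized counts, while the 10 receptors between 5 and 50 gave 1 call, the rise of Epha3. Of all 11323 genes with a mean of at least 50, 9.04% fell and 17.7% passed in either direction, against 24.2% and 33.3% of these 33 receptors.

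**Figure D1:**
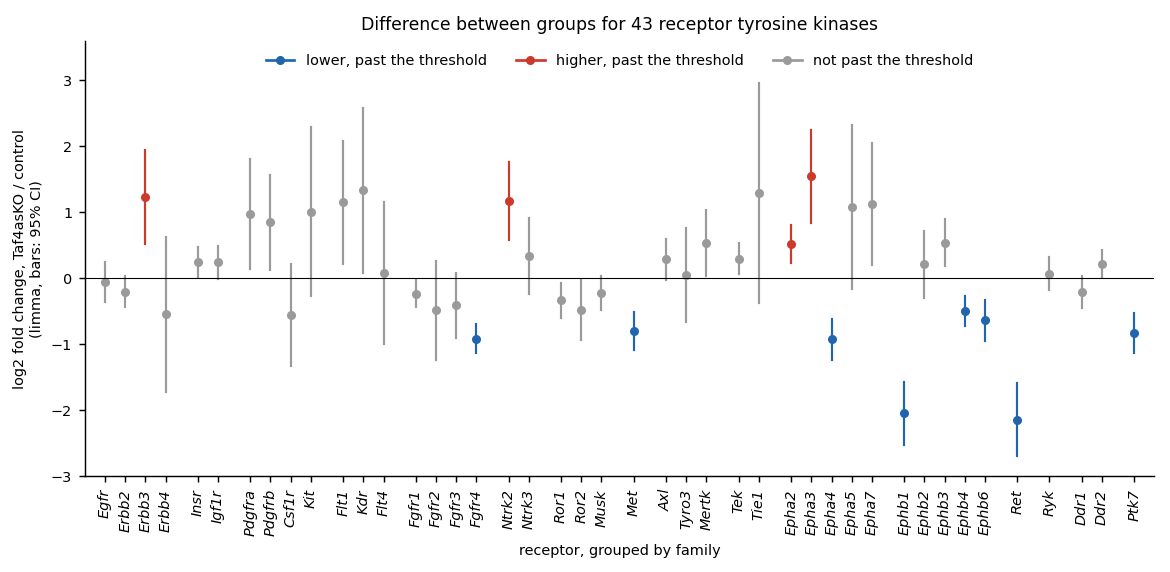
Fitted log2 fold change (Taf4asKO over control, 3 libraries each) of the 43 receptors tested, grouped by family on the x axis, with bars for the 95% confidence interval from limma. The 8 receptors in blue fell and the 4 in red rose, Ret and Ephb1 lie lowest at -2.14 and -2.04, and Tie1, Kit and Kdr have wide intervals.

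Levels of different receptors were compared per kilobase of exon (the union of all GENCODE M21 exons of a gene), since longer transcripts give more reads. Fgfr4 had the highest level per kb, with 2522 ± 237 normalized counts per kb in control and 1334 ± 22.1 in Taf4asKO (SD, n = 3). Fgfr1 was next in both groups, with 988.3 ± 21.1 and 842.7 ± 52.0 per kb. Before division by length, Fgfr1 had more normalized counts than Fgfr4 in every library. The order of Fgfr4 and Fgfr1 thus depends on their exon unions of 3.542 and 9.875 kb, which can be longer than a single transcript. Both are receptors for fibroblast growth factors. Together they made up 51.8%, 45.5% and 46.9% of the summed per-kb level of all members in control and 38.6%, 36.1% and 36.6% in Taf4asKO. Egfr, Axl, Ddr1, Ror1 and Ret followed in control, between 366.8 and 261.9 per kb, with spreads that overlap from neighbour to neighbour. Ret, 7th of 44 receptors in control at 261.9 ± 106 per kb, was 21st in Taf4asKO at 56.0 ± 5.73. Erbb3 was 19th in control at 90.6 ± 42.8 per kb and 12th in Taf4asKO at 196.0 ± 30.7. Epha5 was lowest in both groups, at 0.28 and 0.60 per kb.

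**Figure D2:**
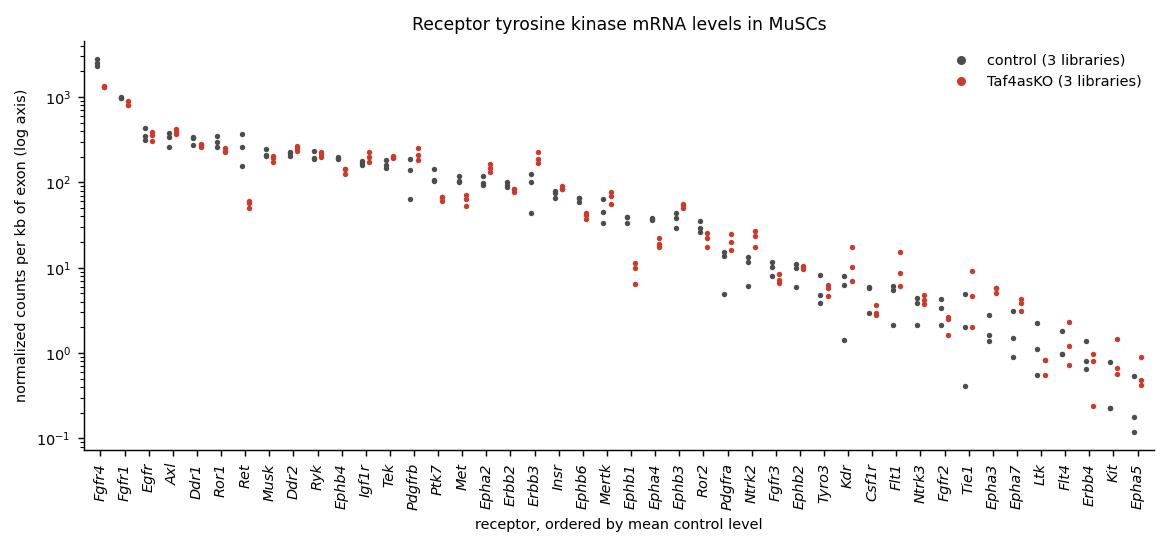
Normalized counts per kb of exon (log axis) of the 44 receptors with a row, ordered by mean control level, with a point for each of the 3 control (grey) and 3 Taf4asKO (red) libraries. Fgfr4 and Fgfr1 stand highest in both groups, and the red points of Ret and Ephb1 lie well below the grey ones.

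Fgfr4 (ENSMUSG00000005320, mm10 chromosome 13, 55152640 to 55168759, plus strand) showed 9821, 8148 and 8832 normalized counts in control libraries and 4816, 4686 and 4675 in Taf4asKO. The Taf4asKO libraries lay close together and well under every control library. Fgfr4 fell by 0.91 on the log2 scale (SE 0.10, limma adjusted p 0.000529), from 8934 ± 841 to 4726 ± 78.4 normalized counts (SD, n = 3). Fgfr1 had 9983, 9725 and 9570 in control and 8913, 8060 and 7992 in Taf4asKO. Its groups did not overlap, but the difference of -0.23 (SE 0.09, limma adjusted p 0.131) did not pass. The per-kb ratio of Fgfr4 to Fgfr1 within a library was 2.74, 2.34 and 2.57 in control and 1.51, 1.62 and 1.63 in Taf4asKO, a quantity on which the scaling between libraries has no effect. Fgfr2 and Fgfr3, the remaining FGF receptors, were far less abundant and had log2 fold changes of -0.48 and -0.41 (limma adjusted p 0.380 and 0.257). The normalized counts of all 44 receptors added up to 44187, 44591 and 45572 in control and 39150, 39449 and 38747 in Taf4asKO. Without Fgfr4 these sums were 34366, 36443 and 36740 in control and 34334, 34763 and 34072 in Taf4asKO, so most of the gap between the sums lay in Fgfr4.

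Ret (ENSMUSG00000030110, chromosome 6, 118151745 to 118197718, minus strand) is the signalling chain of the receptor for GDNF family ligands, which bind a GFRA co-receptor first. Ret had 1747, 2501 and 1065 normalized counts in control libraries and 409, 392 and 335 in Taf4asKO. Control libraries varied widely among themselves, yet the lowest was far above the highest Taf4asKO library. The log2 fold change was -2.14 (SE 0.25, limma adjusted p 0.000797) and ran from -2.47 to -1.85 when each library was left out. Gdnf, a ligand of this receptor, fell by 2.03 (SE 0.35, limma adjusted p 0.00555), with 64, 38 and 41 normalized counts in control libraries and 13, 13 and 7 in Taf4asKO. Gfra1, the co-receptor that binds GDNF, had 963, 1454 and 886 in control and 561, 612 and 432 in Taf4asKO and fell by 1.02 (SE 0.19, limma adjusted p 0.00795). Neither Gdnf nor Gfra1 had overlapping groups. The other co-receptors, named after their values were seen, did not pass. Gfra2, which binds neurturin, had 92, 146 and 139 in control and 179, 185 and 199 in Taf4asKO (0.60, limma adjusted p 0.0664), and passed with the block (0.0270). Gfra3 had a difference of 0.98 (0.0907) and Gfra4 one of -1.67 (0.0728, with the block 0.0364). Artn, Nrtn and Pspn, the other ligands of this family, had differences of -0.21 (0.821), -1.17 (0.195) and -0.61 (0.334) at up to 24 counts. The other members of the system thus lay on both sides of zero. Among the adaptors, Shc2 of the SHC family had 227, 409 and 178 in control and 41, 68 and 38 in Taf4asKO, and fell by 2.40 (SE 0.32, limma adjusted p 0.00146). Shc1, Shc3 and Shc4, named after their values were seen, lay above control in all Taf4asKO libraries, with differences of 0.18 (0.281), 0.93 (0.102, with the block 0.0284) and 0.96 (0.104, with the block 0.0130). Gfra1, Shc2 and Shc4 each share exon sequence with a gene on the opposite strand (Gm16277, Gm47163 and Eid1). Whether counting used the strand is not given in the sources used here, so values of such genes are uncertain. Among the 44 receptors 9 share exon sequence in this way, of which Ephb1 and Ephb4 passed.

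**Figure D3:**
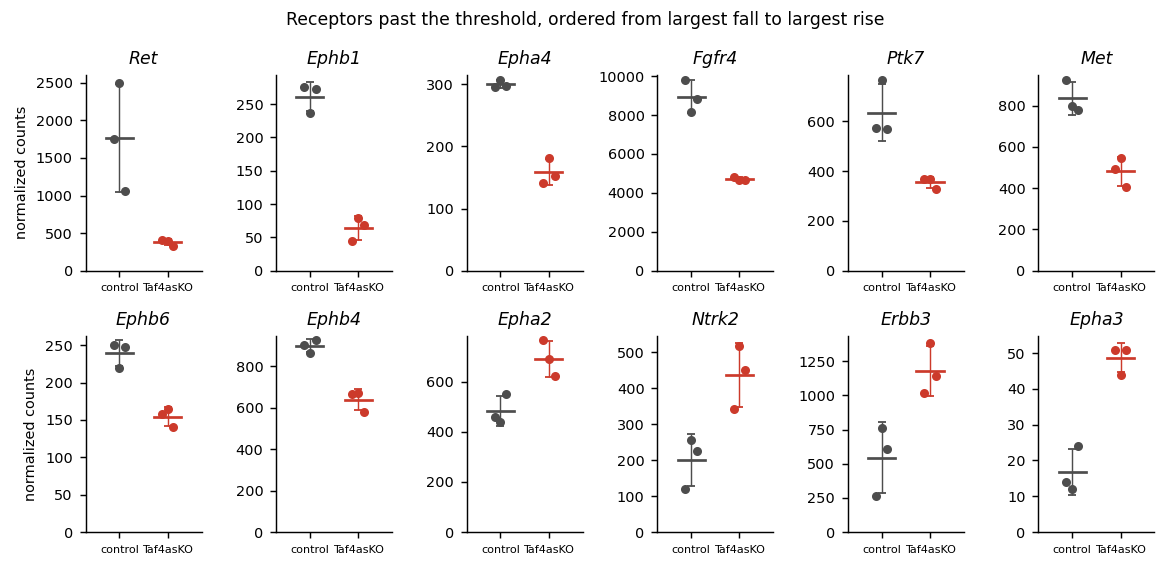
Normalized counts of the 12 receptors past the threshold in each library (points), with the group mean (line) and SD (bar), n = 3 per group, ordered from the lowest to the highest log2 fold change and with y axes from 0. In every panel the points of the groups are separate, and the control points of Ret and Erbb3 spread widely.

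Eph receptors bind ephrins on neighbouring cells and guide cell contact, repulsion and migration. All 10 listed members were tested, of which Ephb1, Epha4, Ephb6 and Ephb4 fell and Epha3 and Epha2 rose. By class, 3 of 5 EphB receptors fell, and 1 of 5 EphA receptors fell and 2 rose, where 6.71% of all genes fell and 5.93% rose. The difference between the classes was not tested, and with the block 1 EphB receptor, Ephb3, rose. Ephb1 (ENSMUSG00000032537, chromosome 9, 101922128 to 102354693, minus strand) showed 275, 237 and 272 normalized counts in control libraries and 45, 79 and 69 in Taf4asKO. The highest Taf4asKO library was far below the lowest control library, and the log2 fold change was -2.04 (SE 0.21, limma adjusted p 0.000499). Epha4 (ENSMUSG00000026235, chromosome 1, 77367185 to 77515088, minus strand) showed 295, 307 and 297 in control and 141, 182 and 152 in Taf4asKO, a fall of 0.92 (SE 0.14, limma adjusted p 0.00291). Control libraries of Epha4 were nearly alike and all above Taf4asKO. Ephb1 shares exon sequence with Gm26846 on the opposite strand.

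The falls of Ephb6 and Ephb4 were smaller. Ephb6 (ENSMUSG00000029869, chromosome 6, 41605482 to 41620509, plus strand), a member whose kinase domain lacks activity, had 251, 220 and 248 normalized counts in control libraries and 158, 165 and 140 in Taf4asKO. Its log2 fold change was -0.63 (SE 0.14, limma adjusted p 0.0164), and the adjusted p was 0.0524, 0.0561 and 0.0892 without Taf4asKO replicate 1, 2 or 3. Ephb4 (ENSMUSG00000029710, chromosome 5, 137350109 to 137374532, plus strand), the receptor for ephrin-B2, had 900, 865 and 927 in control and 667, 668 and 579 in Taf4asKO. Its log2 fold change was -0.49 (SE 0.10, limma adjusted p 0.0126), with 0.0516 and 0.0782 without Taf4asKO replicate 2 or 3. Both receptors had separate groups. Ephb4 shares exon sequence with Zan on the opposite strand.

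Epha3 (ENSMUSG00000052504, chromosome 16, 63543538 to 63864158, minus strand) was a low transcript with 14, 12 and 24 normalized counts in control libraries and 51, 44 and 51 in Taf4asKO. It rose by 1.55 (SE 0.32, limma adjusted p 0.0115), with an adjusted p of 0.0545 and 0.0629 without Taf4asKO replicate 1 or 3. Epha2 (ENSMUSG00000006445, chromosome 4, 141301240 to 141329384, plus strand) showed 460, 438 and 549 in control and 765, 688 and 621 in Taf4asKO and rose by 0.52 (SE 0.13, limma adjusted p 0.0250). This call was lost without control replicate 1 (0.0649) or Taf4asKO replicate 1, 2 or 3 (0.0528 to 0.10). Ephb3 did not pass, with 193, 292 and 254 in control and 376, 357 and 330 in Taf4asKO (0.54, SE 0.16, limma adjusted p 0.0521), and passed with the block (0.0264). Epha7 did not pass (1.13, limma adjusted p 0.104) and passed with the block (0.0438), Epha5 had a difference of 1.09 (0.231) at under 10 counts in most libraries, and Ephb2 one of 0.21 (0.581). Of the ephrins, Efnb1, Efnb2 and Efnb3 had log2 fold changes of 0.15, 0.43 and 0.27 and Efna1 to Efna5 ranged from -1.38 to 0.41, none past the threshold.

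Core promoters of the receptors were searched for short sequence motifs. RefSeq windows (GRCm38.p6, 250 bases before to 50 after a start) were found for 37 of the 44 members with a row, 43 windows in all. The letters CCAAT, which NF-Y is known to bind, lay on either strand in 10 member windows (23.3%) and in 37.4% of all 32851 windows. The letters GGGCGG, a GC box of the kind that SP1 binds, lay in 31 (72.1%) and in 35.7% of all windows, and TATAAA in 3 (6.98%) and 13.6%. Member windows had a median GC content of 65.3%, against 52.7% over all windows. No motif contains another, though neighbouring matches can share letters, and a match is a description of these letters and not a site in use. Of 7 windows of receptors that fell, 3 held CCAAT and 6 held GGGCGG, and of 3 windows of receptors that rose, 0 held CCAAT and 2 held GGGCGG. These 3 windows with CCAAT belong to Eph receptors, and they are shown with that of Fgfr4, the receptor with the highest level per kb. Capitals mark CCAAT or its reverse complement ATTGG for the Eph receptors and GGGCGG for Fgfr4. All windows are given in 5′ to 3′ direction of the gene. They lie at chr9:102354644-102354943 (minus strand, Ephb1), chr1:77515039-77515338 (minus strand, Epha4), chr5:137349859-137350158 (plus strand, Ephb4) and chr13:55152568-55152867 (plus strand, Fgfr4).
Ephb1: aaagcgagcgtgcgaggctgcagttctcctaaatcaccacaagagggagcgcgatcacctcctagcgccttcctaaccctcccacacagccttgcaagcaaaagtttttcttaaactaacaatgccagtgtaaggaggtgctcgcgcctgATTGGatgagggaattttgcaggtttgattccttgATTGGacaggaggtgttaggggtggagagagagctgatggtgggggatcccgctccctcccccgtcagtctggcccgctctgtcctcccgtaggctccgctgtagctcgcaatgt
Epha4: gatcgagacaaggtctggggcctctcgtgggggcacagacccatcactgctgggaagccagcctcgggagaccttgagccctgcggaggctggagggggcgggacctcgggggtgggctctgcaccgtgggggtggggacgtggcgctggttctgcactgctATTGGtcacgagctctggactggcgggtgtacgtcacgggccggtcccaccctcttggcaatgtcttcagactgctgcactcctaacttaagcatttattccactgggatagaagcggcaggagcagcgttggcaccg
Ephb4: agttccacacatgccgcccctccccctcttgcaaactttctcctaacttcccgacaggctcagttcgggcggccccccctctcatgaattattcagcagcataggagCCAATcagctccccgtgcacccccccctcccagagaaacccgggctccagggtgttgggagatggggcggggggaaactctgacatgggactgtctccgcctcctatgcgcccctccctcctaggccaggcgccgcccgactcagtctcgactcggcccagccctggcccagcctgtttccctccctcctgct
Fgfr4: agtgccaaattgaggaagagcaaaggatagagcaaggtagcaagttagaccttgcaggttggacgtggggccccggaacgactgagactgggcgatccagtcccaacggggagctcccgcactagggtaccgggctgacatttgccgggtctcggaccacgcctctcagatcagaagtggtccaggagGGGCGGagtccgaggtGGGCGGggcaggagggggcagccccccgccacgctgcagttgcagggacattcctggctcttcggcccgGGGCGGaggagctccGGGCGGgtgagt
Ephb1 holds the reverse letters 2 times and Epha4 1 time, Ephb4 holds the forward letters 1 time, and Fgfr4 holds the GC box 4 times.

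Met (ENSMUSG00000009376, chromosome 6, 17463800 to 17573980, plus strand) is the receptor of hepatocyte growth factor. It had 925, 800 and 781 normalized counts in control libraries and 493, 544 and 408 in Taf4asKO, with no overlap. Met fell by 0.80 (SE 0.13, limma adjusted p 0.00414), while its ligand Hgf was low in all libraries (5 to 19 counts) with a difference of -0.32 (SE 0.52, limma adjusted p 0.733). Ptk7 (ENSMUSG00000023972, chromosome 17, 46564451 to 46629504, minus strand), a co-receptor of planar cell polarity and Wnt signalling without kinase activity, had 571, 765 and 567 in control and 366, 367 and 329 in Taf4asKO. Its fall of 0.83 (SE 0.14, limma adjusted p 0.00453) held in all 6 fits that left out a library. Ror1, Ror2 and Ryk, which bind Wnt ligands, did not pass. Ror1 had 1710, 1497 and 2012 in control and 1299, 1360 and 1458 in Taf4asKO (-0.33, SE 0.12, limma adjusted p 0.0952), and passed without control replicate 2 (0.0225). Ror2 had a difference of -0.48 (SE 0.20, limma adjusted p 0.150) with separate groups and Ryk one of 0.070 (0.731).

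Musk, the receptor that gathers acetylcholine receptors at the neuromuscular junction, had 775, 796 and 932 normalized counts in control libraries and 762, 648 and 737 in Taf4asKO. All Taf4asKO libraries lay below control, with a difference of -0.22 (SE 0.11, limma adjusted p 0.237) that did not pass. Of its partners, 2 changed, in opposite directions. Dok7, the cytoplasmic activator of Musk, had 172, 303 and 126 in control and 74, 87 and 43 in Taf4asKO and fell by 1.51 (SE 0.34, limma adjusted p 0.0175). Control replicate 2, where Dok7 was highest, also had the highest sum of myofibre markers, and the part of fiber RNA in Dok7 was not tested. Without Taf4asKO replicate 1 or 3 the adjusted p of Dok7 was 0.0524 and 0.0699. Agrn, the agrin ligand, had 974, 1380 and 1314 in control and 1595, 1781 and 1760 in Taf4asKO and rose by 0.50 (SE 0.13, limma adjusted p 0.0364). That call was lost without control replicate 1 (0.0805) or Taf4asKO replicate 1, 2 or 3 (0.0728, 0.141 and 0.132). Lrp4, the agrin co-receptor, had a difference of -0.32 (SE 0.12, limma adjusted p 0.119).

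Erbb3 and Ntrk2 rose, both of them receptors known from Schwann cells as well as other lineages. Erbb3 (ENSMUSG00000018166, chromosome 10, 128567523 to 128589652, minus strand), a neuregulin receptor that signals through its partners, had 262, 765 and 609 normalized counts in control libraries and 1017, 1380 and 1141 in Taf4asKO. Control replicate 1 was far below the other libraries, and the groups did not overlap. The log2 fold change was 1.24 (SE 0.32, limma adjusted p 0.0314), 0.78 without control replicate 1, and past the limit in 3 of 6 fits that left out a library, with an adjusted p of 0.0743, 0.125 and 0.0922 without Taf4asKO replicate 1, 2 or 3. It did not pass with robust shrinkage or without the intensity trend (up to 0.131). Ntrk2 (ENSMUSG00000055254, chromosome 13, 58806569 to 59133970, plus strand), the receptor of brain-derived neurotrophic factor, had 119, 255 and 226 in control and 341, 517 and 450 in Taf4asKO. It rose by 1.17 (SE 0.27, limma adjusted p 0.0185), with 0.0896 and 0.0737 without Taf4asKO replicate 2 or 3.

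Schwann and glial markers moved with these receptors. Of 12 listed markers 11 were tested, 7 rose (limma), where 5.93% of all genes rose, and all 11 had log2 fold changes above zero. Their summed counts were 3548, 6639 and 5666 in control and 8274, 9832 and 9545 in Taf4asKO, 1.74 times higher on average, and control replicate 1 was lowest here too. Sox10, a transcription factor that defines this lineage, had 185, 534 and 420 in control and 734, 1016 and 900 in Taf4asKO. As a share of the marker sum, Erbb3 was 7.38%, 11.5% and 10.7% in control and 12.3%, 14.0% and 11.95% in Taf4asKO, and Ntrk2 was 3.73% ± 0.33 and 4.70% ± 0.57 (SD, n = 3). The part of these cells in the rise of Erbb3 and Ntrk2 was not tested. The other receptors of both families did not pass. Egfr had 3980, 3545 and 4939 in control and 3503, 4038 and 4423 in Taf4asKO (-0.052, SE 0.14, limma adjusted p 0.842). Its 95% confidence interval ran from -0.35 to 0.25. Erbb2, the shared partner of this family, had a difference of -0.20 (0.242) with separate groups, and the low Erbb4 one of -0.55 (0.541). Ntrk3, the receptor of neurotrophin 3, had a difference of 0.34 (SE 0.26, limma adjusted p 0.421).

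Receptors known from vascular and mural cells gave no call without the block. Flt1 and Kdr bind VEGF, Flt4 binds VEGF-C, and Tek and Tie1 belong to the angiopoietin system. All 5 had log2 fold changes above zero, with a median of 1.15. Flt1 had 29, 83 and 75 normalized counts in control libraries and 83, 118 and 209 in Taf4asKO (1.15, SE 0.42, limma adjusted p 0.102, with the block 0.0056). Kdr had 13, 73 and 57 in control and 63, 92 and 160 in Taf4asKO (1.33, SE 0.56, limma adjusted p 0.151, with the block 0.0127). In both, control replicate 1 was lowest, Taf4asKO replicate 3 was highest, and the groups overlapped or met. The endothelial marker sum had the same lowest and highest library, with 326, 738 and 716 in control and 622, 775 and 1154 in Taf4asKO. None of its 12 genes passed without the block, where 12.6% of all genes passed. An unadjusted p under 0.05 (limma) was found for 5 of the 12, and for 5344 of all 18562 genes. With the block 3 of the 12 passed, where 18.1% of all genes passed. Tek had 692, 858 and 752 in control and 923, 960 and 940 in Taf4asKO (0.30, SE 0.11, limma adjusted p 0.0957, and 0.0211 without control replicate 2). Its normalized counts were 81.5% to 212% of the endothelial sum of the same library, and the cells that Tek transcripts came from were not tested. Tie1 and Flt4 had differences of 1.29 (0.286) and 0.083 (0.933).

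Pdgfra marks fibro-adipogenic progenitors and Pdgfrb marks pericytes and other stromal cells. Pdgfra had 49, 139 and 152 normalized counts in control libraries and 160, 203 and 247 in Taf4asKO (0.98, SE 0.37, limma adjusted p 0.115, with the block 0.00927). Pdgfrb had 347, 761 and 1044 in control and 1004, 1379 and 1162 in Taf4asKO (0.85, SE 0.32, limma adjusted p 0.113, with the block 0.0111, and 0.0299 without control replicate 3). Control replicate 1 was again the lowest library for both. The pericyte and smooth muscle sum was 27474, 30939 and 32690 in control and 28385, 33750 and 32909 in Taf4asKO, of whose 11 genes 2 rose, Rgs5 and Myh11, and 6 with the block, where 5.93% of all genes rose and 9.09% with the block. The fibro-adipogenic sum was 58691, 78468 and 99780 in control and 44455, 77633 and 72206 in Taf4asKO, and 2 of its 14 genes fell, Dpt and Col3a1, with 12 of the 14 above zero. Of all genes 6.71% fell. With the block 8 of these 14 rose and 2 fell, where 9.09% of all genes rose and 8.98% fell. The part of these cells in the values of Flt1, Kdr, Pdgfra and Pdgfrb was not tested. Kit and Csf1r, the receptors of stem cell factor and of the macrophage growth factor, were low, with differences of 1.01 (0.279) and -0.56 (0.324).

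**Figure D4:**
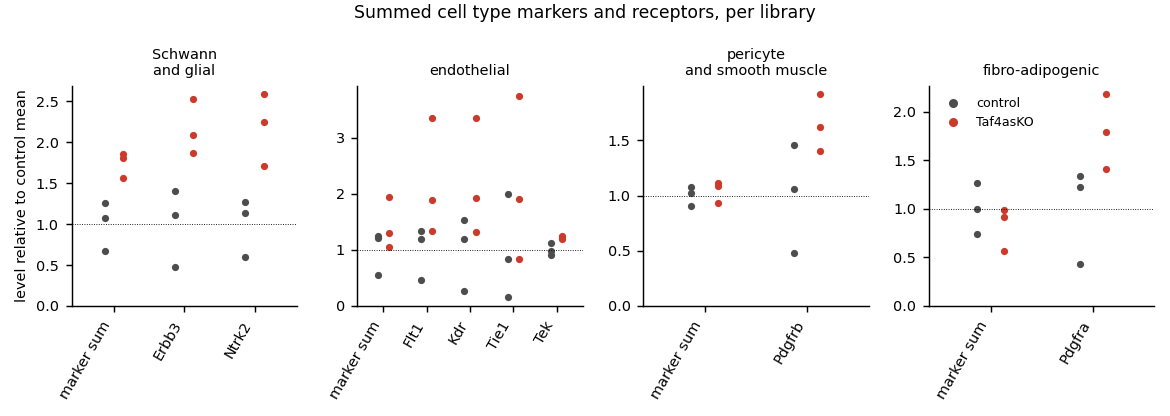
Summed normalized counts of markers of 4 cell types, and of the receptors known from those cells, in each library relative to the control mean (dotted line at 1), with control in grey and Taf4asKO in red. Erbb3 and Ntrk2 rise with the Schwann and glial sum, Flt1 and Kdr spread like the endothelial sum, and Pdgfrb and Pdgfra lie mostly higher in Taf4asKO where the sums of their cell types overlap. The sums do not show that most single markers of these cell types had log2 fold changes above zero. These were 8 of 11 for pericytes and smooth muscle, with 3 below, and 12 of 14 for fibro-adipogenic cells, with 2 below.

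The remaining receptors did not pass. Insr and Igf1r, the insulin and insulin-like growth factor receptors, had 910 to 1081 and 2680 to 3022 normalized counts in control libraries and 1154 to 1258 and 2924 to 3870 in Taf4asKO, and both had log2 fold changes of 0.24 (limma adjusted p 0.150 and 0.197). The ligands of Igf1r changed in opposite directions. Igf1 had 1620, 2970 and 1388 in control and 325, 742 and 498 in Taf4asKO and fell by 1.93 (SE 0.31, limma adjusted p 0.00410). Igf2 had 1233, 1894 and 1206 in control and 3533, 2983 and 3610 in Taf4asKO and rose by 1.25 (SE 0.17, limma adjusted p 0.00153). Neither ligand had overlapping groups, and Igf2 shares exon sequence with Igf2os on the opposite strand. Axl, Mertk and Tyro3, the TAM receptors of GAS6 and protein S, had differences of 0.29 (0.199), 0.54 (0.146, and 0.0373 without control replicate 3) and 0.047 (0.945). Their ligand Gas6 had 1713, 2031 and 2485 in control and 3975, 4540 and 5238 in Taf4asKO and rose by 1.15 (SE 0.15, limma adjusted p 0.00124), with an exon shared with Tmem255b on the opposite strand. Pros1, which encodes protein S and was named after its values were seen, had 421, 612 and 454 in control and 667, 641 and 686 in Taf4asKO (0.44, limma adjusted p 0.0696, with the block 0.0345). The collagen receptors Ddr1 and Ddr2 had differences of -0.21 (0.233) and 0.22 (0.148).

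Of 72 listed ligands 53 were tested, of which 2 fell (Igf1 and Gdnf) and 9 rose, 20.8% in all against 12.6% of all genes. With the block 3 fell and 10 rose, where 18.1% of all genes passed. The rises without the block were those of Igf2, Gas6, Agrn, Fgf2, Kitl, Ptn, Angpt1, Csf1 and Areg. Fgf2, a ligand of Fgfr4 and Fgfr1, had 132, 158 and 138 normalized counts in control libraries and 242, 289 and 301 in Taf4asKO and rose by 0.95 (SE 0.15, limma adjusted p 0.00317), opposite to Fgfr4, and it shares exon sequence with Nudt6 on the opposite strand. Kitl, the ligand of Kit, had 77, 114 and 136 in control and 211, 213 and 226 in Taf4asKO, a rise of 1.02 (limma adjusted p 0.0107, and 0.0519 and 0.0567 without Taf4asKO replicate 2 or 3). Ptn, encoding pleiotrophin, rose by 1.31 (limma adjusted p 0.0130, and 0.0689 without Taf4asKO replicate 2). Angpt1, the ligand of Tek, rose by 1.18 (0.0355), Csf1, the ligand of Csf1r, by 0.52 (0.0156), and Areg, an Egfr ligand at 2 to 18 counts, by 1.81 (0.0288). Those 3 calls were lost without Taf4asKO replicate 1, 2 or 3 (0.0564 to 0.137), and those of Angpt1 and Areg also without control replicate 1 (0.0639 and 0.0590). Angpt1 shares exon sequence with Gm17473 on the opposite strand.

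All 24 co-receptors were tested, of which 2 fell and 3 rose, 20.8% in all against 12.6% of all genes. With the block 3 fell and 5 rose, where 18.1% of all genes passed. Beside Gfra1, Ngfr, the low-affinity neurotrophin receptor, had 341, 500 and 330 normalized counts in control libraries and 193, 230 and 187 in Taf4asKO and fell by 0.92 (SE 0.18, limma adjusted p 0.00871). Ntrk2 and Ngfr, which bind shared ligands, thus moved in opposite directions. Sdc4, a heparan sulfate proteoglycan that assists FGF receptors and a MuSC marker, had 5564, 5586 and 5814 in control and 12662, 9579 and 9266 in Taf4asKO and rose by 0.88 (SE 0.12, limma adjusted p 0.00211). Nrp1, a VEGF co-receptor, had 170, 231 and 331 in control and 455, 458 and 534 in Taf4asKO and rose by 1.03 (limma adjusted p 0.0116, and 0.0599 without Taf4asKO replicate 3). Gpc3, a glypican, rose by 0.96 (limma adjusted p 0.0363), and this call was lost without Taf4asKO replicate 1, 2 or 3 (0.0836, 0.148 and 0.0811).

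Of 42 adaptors 38 were tested, of which 5 fell and 3 rose, 21.1% in all against 12.6% of all genes. With the block 5 fell and 7 rose, where 8.98% of all genes fell and 9.09% rose. Vav2 and Vav3 fell together with Shc2, Dok7 and Sh2b2. Vav2 had 623, 676 and 653 normalized counts in control libraries and 468, 437 and 396 in Taf4asKO (-0.59, SE 0.11, limma adjusted p 0.00755, and 0.0516 without Taf4asKO replicate 3). Vav3 had 815, 462 and 763 in control and 378, 337 and 363 in Taf4asKO (-0.88, SE 0.19, limma adjusted p 0.0163, and 0.0533, 0.0767 and 0.0604 without Taf4asKO replicate 1, 2 or 3). Sh2b2, an SH2 adaptor of insulin signalling, fell by 0.74 (limma adjusted p 0.0345) and Pik3r3, a regulatory subunit of PI3K, rose by 0.71 (0.0278). The other rises were those of Pik3r1 and Crk (0.50 and 0.47, limma adjusted p 0.0272 and 0.0343), named after their values were seen. Pik3r1 passed only without control replicate 3 or Taf4asKO replicate 1 among the 6 fits that left out a library (0.0509 to 0.128 in the others), and Crk only without control replicate 2 (0.0507 to 0.124). Without Taf4asKO replicate 2, 3 or control replicate 3 neither Sh2b2 nor Pik3r3 passed (0.0528 to 0.145). The same held for Sh2b2 without control replicate 1 or 2 (0.0644 and 0.0581) and for Pik3r3 without Taf4asKO replicate 1 (0.110). Pik3r3 shares exon sequence with Gm49337 on the same strand.

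Proteins that dampen or remove active receptors formed a list of 35 genes, all tested, of which 6 rose and 1 fell, 20% in all against 12.6% of all genes. With the block 7 rose and 3 fell, where 18.1% of all genes passed. Errfi1, an inhibitor of the EGFR kinase domain, had 4751, 2823 and 5428 normalized counts in control libraries and 15540, 9294 and 10826 in Taf4asKO. It rose by 1.47 (SE 0.24, limma adjusted p 0.00427), with the lowest Taf4asKO library above the highest control library. Ptprf, a receptor-type tyrosine phosphatase, had 2860, 4129 and 2900 in control and 1526, 1637 and 1593 in Taf4asKO and fell by 1.03 (SE 0.14, limma adjusted p 0.00156). Eps15, which acts in endocytosis of receptors, rose by 0.47 (SE 0.09, limma adjusted p 0.00922). Errfi1, Ptprf and Eps15 passed in all 6 fits that left out a library. Socs3, Socs4 and Epn2, which act in cytokine and receptor turnover, rose by 0.56, 0.59 and 0.43 (limma adjusted p 0.0211, 0.0356 and 0.0303), and each lost its call without control replicate 1 (0.0555, 0.0946 and 0.0872), control replicate 3 (0.0508, 0.0931 and 0.0634) or Taf4asKO replicate 2 (0.0603, 0.126 and 0.133). Taf4asKO replicate 1 decided the calls of Socs3 and Socs4 as well (0.0519 and 0.0989), and Taf4asKO replicate 3 those of Socs4 and Epn2 (0.122 and 0.146). The remaining rise was that of Lrig1, named after its values were seen, which shares exon sequence with Slc25a26 on the opposite strand. Of 6 fits that left out a library, Lrig1 passed without control replicate 2 or 3 (limma adjusted p 0.0628 to 0.104 in the others). Of 13 further receptor tyrosine kinases outside the list, 6 were tested and 1 fell, where 6.71% of all genes fell. This was Lmtk3, with 19, 51 and 27 in control and 11 in each Taf4asKO library (-1.36, limma adjusted p 0.0462), named after its values were seen. This call held without control replicate 1 and was lost without any of the other 5 libraries (0.0785 to 0.134), and Lmtk3 shares exon sequence with Sult2b1 on the opposite strand.

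**Figure D5:**
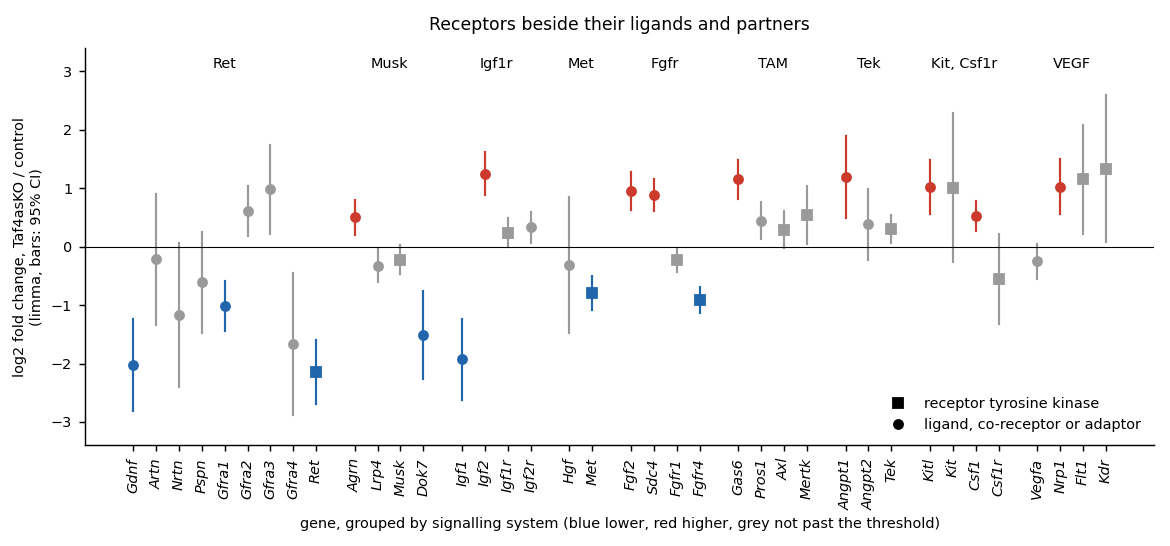
Fitted log2 fold change (Taf4asKO over control, bars for the 95% confidence interval from limma) of receptors (squares) beside ligands, co-receptors and adaptors (circles), grouped by signalling system on the x axis. Ret, Gdnf and Gfra1 lie between -2.14 and -1.02 while Gfra2 and Gfra3 lie above zero without passing, the other systems are shown by examples, and Gas6, Kitl, Csf1, Angpt1 and Nrp1 rose beside receptors that did not pass.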

How the data were processed

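Total RNA of FACS-isolated MuSCs was sequenced as stranded libraries from a low-input kit. According to the labels, the submitters' processing notes and the study's methods, the authors trimmed reads with Trimmomatic 0.39, aligned them to mm10 with STAR 2.6.0c, counted them over exons with featureCounts 1.6.0 and normalized them with DESeq2 1.14.1. The deposited values are a score: the authors scaled the reads of every gene by the size factor of its library and rounded the result, which was inferred from the values. These are called normalized counts. They are not raw reads, so no count model was used, the depth in reads was not used, and depth is described by total normalized counts. The table had 0 value columns without a sample.

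Genes with a mean of at least 5 entered a two-sided limma test (version 3.58.1, R 4.3.3, lmFit followed by eBayes with trend) on log2(value + 1), with Benjamini-Hochberg adjustment over all of them. Because of the added 1, fold changes of low genes are understated. The threshold was an adjusted p under 0.05 with at least a 1.3-fold difference, as in the study. Where only a difference is given, the number in parentheses after it is the limma adjusted p. The test was tried on simulated data with the same dispersion for every gene, in which only genes with a mean of at least 50 changed. That trial does not show how the test does for lower genes or for genes that vary more between libraries.

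Replicate numbers come from the sample titles. Across genes, the deviations from the group mean of libraries with equal numbers correlated at 0.235, 0.126 and 0.150. The mean of the other pairs, -0.0848, is not separate evidence, since deviations within a group sum to zero. Whether equal numbers mark paired libraries was not tested, and the main fit has no block. A fit with the number as a block is given as an alternative. It stands beside each receptor whose call it changes and, for the lists, as counts. Exon lengths and overlaps came from GENCODE M21, where 44 members were found, 31 of them at the position the table gives. Promoter windows came from RefSeq.

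The members and gene lists were chosen with earlier results of these data known. Named genes were all members, Taf4, up to 6 genes past the threshold per list with the largest change and a mean of at least 50, and ligands of named receptors. Alternatives were other scalings, pseudocounts of 0.1 and 5, no filter or a mean of at least 50, a fold limit of 2, an adjusted p under 0.01, no intensity trend, robust shrinkage, the block, and leaving out each library. Figures were drawn with matplotlib 3.10.9.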

Additional observations from a re-analysis of the deposited data

How the results depend on the processing

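Receptors past the threshold numbered 8 lower and 4 higher. A fold limit of 2 left 2 lower, an adjusted p under 0.01 left 0 higher, and fitting without the intensity trend left 1 higher (all limma). With the replicate block 10 receptors were higher and 8 co-receptors passed. The block took no call away from the 12 receptors and moved the counts of ligands, adaptors and down-regulators by no more than 1.5 times. Without single libraries, the receptors past the threshold ranged from 6 to 9 lower and from 0 (without Taf4asKO replicate 3) to 7 (without control replicate 3) higher, and their median from -0.026 to 0.23 (0.20 without control replicate 2). All genes past the threshold fell from 2347 to 850 with the limit of 2-fold, to 876 with the stricter adjusted p and to 941 without the trend, and ranged from 956 to 3096 without single libraries. In the order adaptors, co-receptors, ligands and down-regulators, the main counts were 8, 5, 11 and 7. They were 2, 3, 5 and 3 with an adjusted p under 0.01, and 1, 1, 5 and 1 without the trend. Without single libraries they were 1 to 8, 3 to 8, 5 to 12 and 3 to 9. A fold limit of 2 left 2 adaptors, 2 co-receptors and 2 down-regulators. The single call among further receptor tyrosine kinases became 0 with a mean of at least 50, an adjusted p under 0.01 and no trend, and was 0 or 1 without single libraries (Lmtk3 without control replicate 1, Epha1 without control replicate 2). Taf4 ranged from 0.043 to 0.22 without single libraries. Some log2 fold changes turned sign when a library was left out, with ranges of -0.75 to 0.17 for Artn, -0.61 to 0.12 for Epha1, -0.90 to 0.049 for Bdnf, -0.16 to 0.080 for Egfr (0.038 without Taf4asKO replicate 1), -0.051 to 0.39 for Ephb2, -0.31 to 0.44 for Flt4 (-0.055 without control replicate 1 or 2) and -0.18 to 0.35 for Tyro3, and the cause was not tested. Of 1243 values of 74 named genes under 17 alternatives, 1079 kept direction and side of the threshold, 137 lost the call, 17 gained it and 10 turned sign. The median of all genes moved by under 0.04 in every alternative.

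With 3 libraries per group the precision of low receptors is limited, as the intervals of Kit, Tie1 and Epha5 show. Values are rounded normalized counts, so reads behind them were not used.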
